A study of Mus musculus with 16 samples.

Results

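The 9 genes described here encode parts of the renin-angiotensin system and the corticosteroid receptors (mineralocorticoid, which acts downstream of that system, and glucocorticoid). They are Ace, Agt, Agtr1a, Agtrap, Atp6ap2, Enpep, Mme, Nr3c2 and Nr3c1, taken by symbol as 9 of the 35682 rows of a table of counts per gene. They were measured in adult ventricular myocytes of 16 mice, 8 wild-type (WT) littermates and 8 of B3AR-Tg, a transgenic line whose name refers to the beta-3 adrenergic receptor. All 16 animals had undergone TAC (transverse aortic constriction) 9 weeks before, an operation that narrows the aorta and so loads the left ventricle with pressure. The labels number them as biological replicates. An unoperated group was not analysed here, and the promoter that drives the transgene, the age, the sex and the strain are not given in the sources used here. The set was chosen by the measured difference of Ace between the genotypes in these same libraries, so the genotype values of all 9 are given as a description. Calls among the 9 are counted once, beside the share of all genes, and support nothing.

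In the renin-angiotensin system, renin cuts angiotensinogen (Agt) into angiotensin I, and angiotensin-converting enzyme (Ace) cuts this into angiotensin II. Angiotensin II acts on the type 1 receptor (AT1, the mouse genes Agtr1a and Agtr1b), which constricts vessels and promotes growth and fibrosis in the heart, and it raises aldosterone, a ligand of the mineralocorticoid receptor (Nr3c2). Other peptidases, such as aminopeptidase A (Enpep) and neprilysin (Mme), take angiotensin peptides away from that route. In the heart, Ace is best known from endothelial cells, and it is also found in fibroblasts and in loaded myocytes.

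The libraries held between 5985335 and 14365864 counts. Markers of cardiac myocytes were high, with all 10 of 10 on a fixed list tested and a summed level of 77971 to 105006 CPM (the count divided by the TMM-scaled library total and multiplied by 1e+06) in WT and 87835 to 124045 CPM in B3AR-Tg. Mouse Adrb3, the gene the line is named for, held 0 to 4 counts in WT and 0 to 3 in B3AR-Tg, so it does not check the labels. Transgene sequence, if from another species, may not be counted there. Markers of other cells were present at low levels, and 3 of 10 endothelial and 4 of 7 tested fibroblast markers were lower in B3AR-Tg at an adjusted p under 0.05 in edgeR, the threshold for a call throughout. B3AR-Tg replicate 2 stood apart, with a mean score of endothelial, fibroblast, mural and leukocyte markers (the mean log2 CPM of each list, centred over the 16 animals) of −1.71, against −0.65 to 0.15 in the other 7 B3AR-Tg animals. In this bulk RNA, fewer cells of a type and less RNA per cell cannot be told apart.

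Ace and Agt are shown by the DNA in front of their starts, because the table gives each gene 1 row and the counts of Ace cannot be split between its starts. RefSeq (GRCm38.p6) lists 2 starts for Ace, the first at the beginning of the gene and the second inside it, from which a shorter form is made in testis. The 250 bases upstream of each start are written 5′ to 3′, with matches in capitals to the GC box (GGGCGG), the TATA box (TATAAA), the CCAAT box (CCAAT) and the half-site bound by the corticosteroid receptors (AGAACA), searched on both strands.
Ace, first start, chr11:105967698-105967947, plus strand: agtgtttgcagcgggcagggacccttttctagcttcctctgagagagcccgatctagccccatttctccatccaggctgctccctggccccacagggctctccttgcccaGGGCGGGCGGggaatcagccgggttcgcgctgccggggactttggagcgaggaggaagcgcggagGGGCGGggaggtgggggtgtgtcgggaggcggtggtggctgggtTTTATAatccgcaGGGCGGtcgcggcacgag
Ace, second start, chr11:105974939-105975188, plus strand: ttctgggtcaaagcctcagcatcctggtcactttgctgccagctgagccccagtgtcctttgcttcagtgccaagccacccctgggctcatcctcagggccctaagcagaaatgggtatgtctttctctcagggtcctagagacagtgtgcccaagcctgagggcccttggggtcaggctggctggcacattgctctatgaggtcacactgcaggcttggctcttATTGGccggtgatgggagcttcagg
Agt, chr8:124569707-124569956, minus strand: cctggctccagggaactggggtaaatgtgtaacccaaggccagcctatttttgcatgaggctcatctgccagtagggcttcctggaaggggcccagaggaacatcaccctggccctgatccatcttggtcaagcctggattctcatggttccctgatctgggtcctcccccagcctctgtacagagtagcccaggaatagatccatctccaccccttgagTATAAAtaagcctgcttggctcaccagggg
The first Ace window held 4 matches to the GC box, of which the first 2 overlap, and 1 to the TATA box, with 67.2% G and C. The second held 1 match to the CCAAT box and 58% G and C. The Agt window held 1 TATA box. None of the 3 windows held the receptor half-site. Of 32841 windows of this length in the table, 32.7% held a GC box, 12.4% a TATA box, 33.9% a CCAAT box and 16.1% a half-site.

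Ace (ENSMUSG00000020681), on GRCm38 chromosome 11 from 105967945 to 105989964, was lower in B3AR-Tg than in WT, and among the 9 genes it had the largest difference. WT replicates 1 to 8 held 71, 90, 37, 68, 30, 33, 39 and 84 counts, and B3AR-Tg replicates 1 to 8 held 32, 12, 9, 12, 13, 19, 51 and 19. Scaled to CPM, WT animals ran from 3.92 through a median of 5.89 to 8.51 CPM, and B3AR-Tg animals from 0.94 through 1.69 to 3.97 CPM. The groups met only at their edges: B3AR-Tg replicate 7, at 3.97 CPM, was above WT replicate 5, at 3.92 CPM, and every other B3AR-Tg animal was below every WT animal. The means were 6.17 ± 1.78 and 1.83 ± 0.969 CPM (SD, n = 8 each), a fitted log2 fold change of −1.74 ± 0.26 (SE), or 3.34-fold lower. Leaving out B3AR-Tg replicate 2 gave −1.65, and leaving out replicate 7 gave −2.02.

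Agt, the precursor of all angiotensins, varied most among WT animals. WT replicates 1, 4 and 8 had 13.4, 15 and 21.9 CPM, and the other 5 WT animals had 4.51 to 7.94 CPM. All B3AR-Tg animals lay between 3.43 and 8.77 CPM, below those 3 WT animals and overlapping with the other 5. The means were 10.2 ± 6.04 and 6.01 ± 1.94 CPM (SD, n = 8 each), a log2 fold change of −0.79 ± 0.29 (SE). Without WT replicate 8 it was −0.53. Renin itself (Ren1) was almost absent, with 4 counts in 1 WT animal, 1 count in 1 B3AR-Tg animal and none in the other 14. Atp6ap2, the (pro)renin receptor and an accessory protein of the vacuolar proton pump, was at 12.4 ± 2.47 CPM in WT against 11.9 ± 1.92 CPM in B3AR-Tg, with a log2 fold change of −0.06 ± 0.13 (SE).

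**Figure D1:**
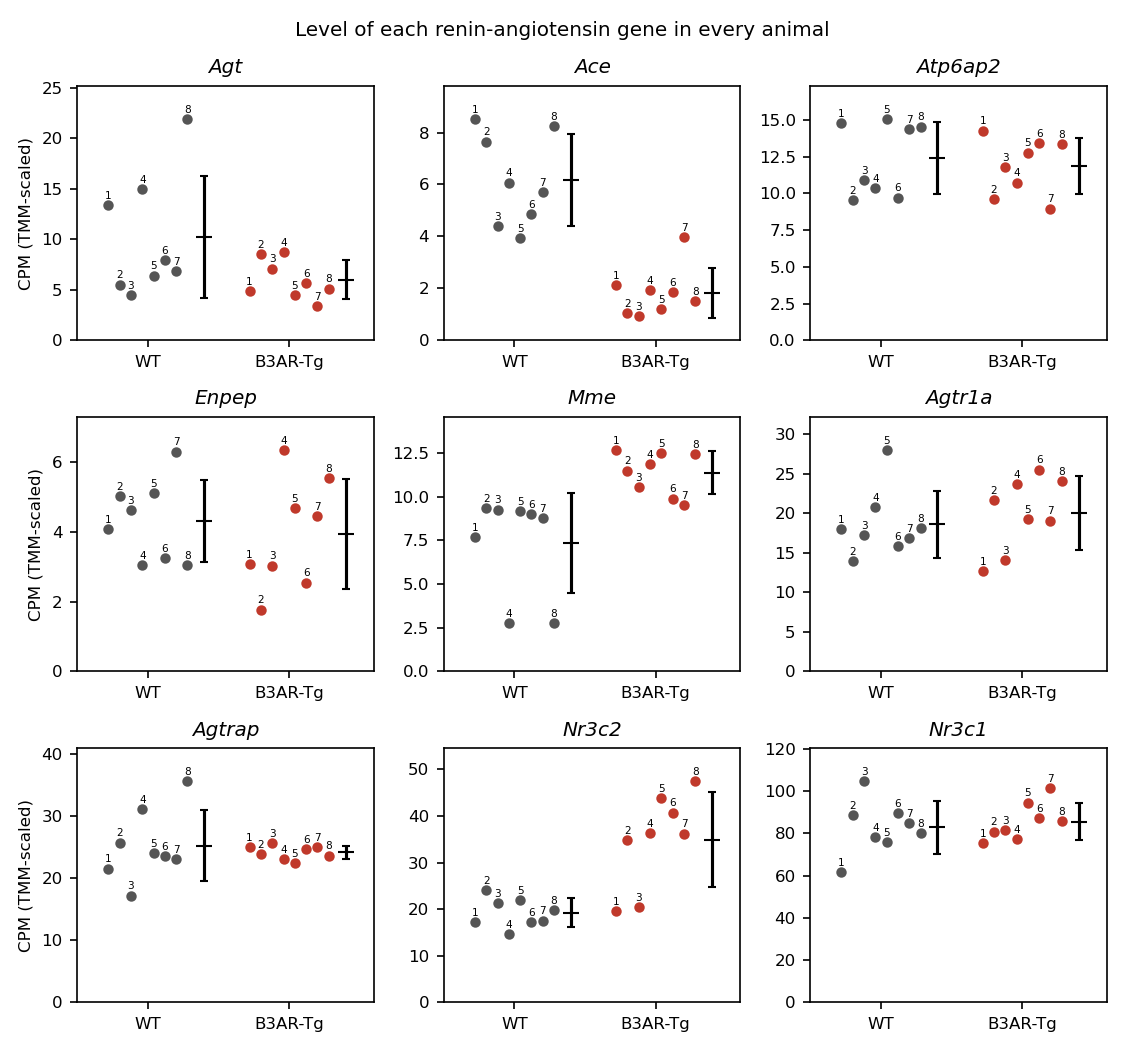
Level of each of the 9 genes in CPM (vertical axes, from 0, a different scale per gene) in each WT (grey) and B3AR-Tg (red) animal. Numbers are replicates and black bars are the mean ± SD of 8 animals. Ace is low in 7 of the 8 B3AR-Tg animals and nearer WT in replicate 7, Mme is low in WT replicates 4 and 8, and Nr3c2 is at the WT level in B3AR-Tg replicates 1 and 3.

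The membrane peptidases that remove or redirect angiotensins did not have lower levels like that of Ace, with Mme higher and Enpep close to equal. Mme (neprilysin), which cleaves angiotensin I, bradykinin and natriuretic peptides, ran from 2.75 through 8.88 to 9.35 CPM in WT and from 9.50 through 11.7 to 12.7 CPM in B3AR-Tg. All B3AR-Tg animals were therefore above all WT animals, although the gap between 9.35 and 9.50 CPM was small. Of the 9 genes, 1 had groups that did not overlap, against 0.448% of all tested genes in either direction and 0.201% with B3AR-Tg higher (0.247% lower). WT replicates 4 and 8 were far below the rest, at 2.77 and 2.75 CPM, while the other 6 WT animals had 7.67 to 9.35 CPM. The log2 fold change was 0.64 ± 0.22 (SE). It was 0.51 without WT replicate 4 and 0.52 without WT replicate 8. Enpep (aminopeptidase A), which trims angiotensin II to angiotensin III, was at 4.30 ± 1.17 CPM in WT against 3.93 ± 1.57 CPM in B3AR-Tg (log2 difference −0.14 ± 0.24 SE).

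Because counts of 2 genes in 1 library need no scaling, the ratio of Ace to Mme counts was also taken in each animal. It ran from 0.429 to 3.00 in WT, with a median of 0.734, and from 0.0891 to 0.418 in B3AR-Tg, with a median of 0.143. The 2 genotypes came close, at 0.429 and 0.418, but did not overlap in this ratio. The highest WT values, 2.19 and 3.00, belonged to replicates 4 and 8. Ace was already lower and Mme already higher in B3AR-Tg, so the separation follows from these 2 genes and supports nothing further. How often other pairs of genes separate in this way was not counted.

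The main receptor gene showed little difference. Agtr1a, the main AT1 receptor gene of the mouse heart, ran from 13.9 through 17.6 to 27.98 CPM in WT and from 12.7 through 20.5 to 25.5 CPM in B3AR-Tg. The ranges overlapped almost wholly, and the log2 fold change was 0.10 ± 0.15 (SE). Its near-identical copy Agtr1b was listed at 0 counts in all 16 animals, and how reads that match both were assigned is not given in the sources used here. The type 2 receptor gene Agtr2 was also at 0 counts in every library, which allows a level of up to 0.201 to 0.487 CPM (3 counts, a limit for counting error only). Mas1, the receptor of angiotensin-(1-7), held 16 counts over the 8 WT animals and 33 over the 8 B3AR-Tg animals, at most 9 in any library. Scaled, Mas1 was at 0.217 ± 0.172 CPM in WT against 0.441 ± 0.419 CPM in B3AR-Tg (SD, n = 8 each). It did not pass the filter on low counts.

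Agtrap, a protein that binds the AT1 receptor and promotes its removal from the cell surface, had nearly equal means, at 25.3 ± 5.74 CPM in WT against 24.2 ± 1.11 CPM in B3AR-Tg (SD, n = 8 each). B3AR-Tg animals kept to a narrow range of 22.4 to 25.7 CPM. WT replicates 4 and 8, the animals with low Mme, had the highest values, at 31.2 and 35.7 CPM, and WT replicate 3 had the lowest, at 17.2 CPM.

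**Figure D2:**
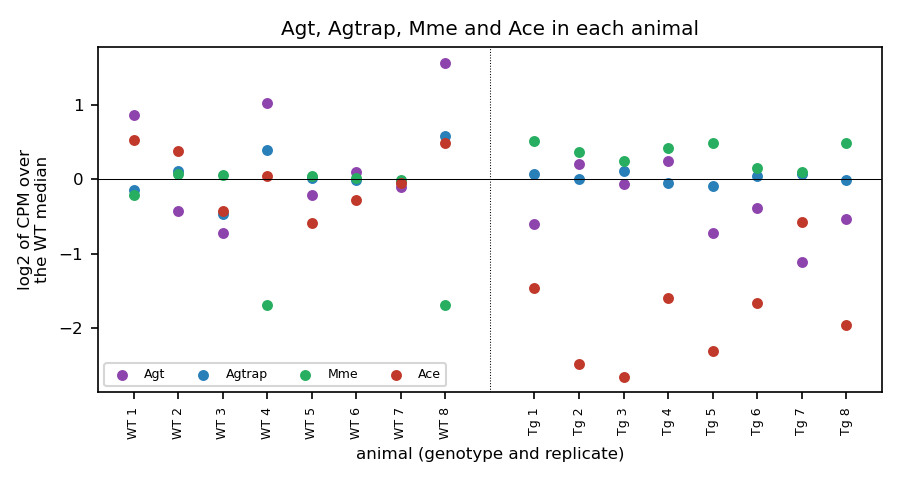
Agt, Agtrap, Mme and Ace in each animal (horizontal axis, genotype and replicate), as the log2 of CPM over the median of the 8 WT animals (vertical axis). In WT replicates 4 and 8 Agt and Agtrap are high and Mme is low, and in all B3AR-Tg animals Ace is below the WT median and Mme above it.

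The corticosteroid receptor genes differed from each other. Nr3c2 (ENSMUSG00000031618, GRCm38 chromosome 8 from 76899442 to 77245012), the mineralocorticoid receptor, which binds aldosterone and also glucocorticoids, ran from 14.6 through 18.7 to 24.05 CPM in WT and from 19.55 through 36.3 to 47.45 CPM in B3AR-Tg. In B3AR-Tg, 6 of the 8 animals were above every WT animal, and B3AR-Tg replicates 1 and 3, at 19.55 and 20.46 CPM, were at the WT level. The means were 19.2 ± 3.11 and 34.9 ± 10.1 CPM (SD, n = 8 each), a log2 fold change of 0.86 ± 0.16 (SE). Leaving out B3AR-Tg replicate 1 gave 0.95 and leaving out B3AR-Tg replicate 8 gave 0.79. Nr3c1, the related glucocorticoid receptor, was at 82.9 ± 12.5 CPM in WT against 85.4 ± 8.80 CPM in B3AR-Tg (log2 difference 0.05 ± 0.09 SE). The ratio of Nr3c2 to Nr3c1 counts within an animal ran from 0.187 to 0.290 in WT, with a median of 0.227. It ran from 0.251 to 0.553 in B3AR-Tg, with a median of 0.448, and the 2 B3AR-Tg animals inside the WT range were again replicates 1 and 3.

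At an adjusted p under 0.05 in edgeR, 2 of the 9 genes were called, Ace lower and Nr3c2 higher, against 4.91% of the 10945 tested genes in either direction, 2.03% higher and 2.88% lower. Nothing is read from that count, since the genes were chosen with this contrast known. In 3 fits that added an endothelial, other-cell or load marker score, neither was called, and 28, 15 and 7 of all genes were. At an unadjusted p under 0.05 stood 19.3% of all tested genes. All 9 passed the filter on low counts. The median log2 fold change of the 9 was −0.06, and that of all tested genes was 0.01. Of the 537 genes called, 222 were higher and 315 lower, and scaling by library size alone gave 346 higher and 165 lower. Under that scaling Agtrap and Atp6ap2, both close to no change, had a positive sign. Without WT replicate 4, B3AR-Tg replicate 5 or B3AR-Tg replicate 8, the number called was 272, 277 and 345.

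Levels of different genes were compared per kilobase of exon. In WT, Nr3c1 was highest at 10.8 ± 1.62 CPM per kilobase. Agtr1a (6.67 ± 1.53), Agtrap (5.96 ± 1.36), Agt (5.39 ± 3.19) and Atp6ap2 (4.73 ± 0.944 CPM per kilobase) followed, and each of these lay within the spread (mean ± SD) of its neighbour in the order. Nr3c2 was next at 2.97 ± 0.480 CPM per kilobase, beyond the spread of its neighbours on either side. Ace (1.17 ± 0.337), Enpep (0.914 ± 0.249) and Mme (0.636 ± 0.249 CPM per kilobase) were lowest, and neighbours among these did not differ beyond their spread. In B3AR-Tg, Nr3c2 took the fourth place at 5.39 ± 1.56 CPM per kilobase, and Ace the last at 0.346 ± 0.183 CPM per kilobase, below Mme at 0.984 ± 0.107 and Enpep at 0.834 ± 0.334 CPM per kilobase. In B3AR-Tg, Mme and Enpep, and Enpep and Ace, did not differ beyond their spread. The order was the same with the longest transcript as the length.

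Other genes of the peptide pathway, from a list of 24, gave few values, since 14 did not pass the filter on low counts. Of the 10 that did, 0 were called by edgeR, 0 by DESeq2 and 0 by voom, and 2 had an unadjusted p under 0.05, near the 19.3% of all tested genes. Their median log2 fold change was −0.09. The largest difference was in Ece1, the endothelin-converting enzyme, which also cleaves bradykinin, at 22.9 ± 8.42 CPM in WT against 17.3 ± 3.69 CPM in B3AR-Tg (log2 difference −0.42, edgeR adjusted p = 0.186). Lnpep, the peptidase that binds angiotensin IV, was abundant in both genotypes, at 318 ± 46.7 and 322 ± 59.0 CPM. Chymase (Cma1), a mast cell enzyme that makes angiotensin II without Ace, held at most 1 count in any library, and the mast cell gene Cpa3 held none. The kinin receptor gene Bdkrb2, whose ligand is degraded by Ace and Mme, held at most 7 counts in any library.

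Genes that couple the AT1 receptor to its effectors were called in no case by edgeR among 12 tested of 15, in 1 case each by DESeq2 and voom, and 4 of the 12 had an unadjusted p under 0.05, against 19.3% of all tested genes. Prkcd, a protein kinase C, had the largest difference, at 3.57 ± 1.08 CPM in WT against 1.98 ± 0.841 CPM in B3AR-Tg (log2 difference −0.84 ± 0.25 SE, edgeR adjusted p = 0.0516). Grk5 and Prkce went the other way, with log2 differences of 0.50 and 0.47 (edgeR adjusted p = 0.0966 and 0.112). Of the 12, 6 had a positive and 6 a negative sign. The G protein subunits that the receptor uses, Gnaq and Gna11, had log2 fold changes of −0.00082 and 0.04. The median of the list was 0.02.

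Among 10 genes that angiotensin II is known to raise in the heart, 8 were tested and 2 were called, both lower in B3AR-Tg, against 2.88% of all tested genes called lower. Postn, a matrix protein of activated fibroblasts, fell from 33.8 ± 28.01 to 5.74 ± 6.00 CPM (log2 difference −2.56 ± 0.54 SE, edgeR adjusted p = 0.0110). Fn1, fibronectin, fell from 10.3 ± 7.75 to 3.39 ± 1.98 CPM (log2 difference −1.65 ± 0.41 SE, edgeR adjusted p = 0.0229). The 8 had a median log2 fold change of −0.68, while Tgfb1 (0.46, edgeR adjusted p = 0.243) and Edn1 (−0.07, edgeR adjusted p = 0.951), made by several cell types, did not pass. The call of Fn1 was lost without WT replicate 8 (adjusted p = 0.0549) and without B3AR-Tg replicate 5. Both calls were lost with any of the 3 marker scores (endothelial, all other cells, load) in the model. With the load score Postn was at 0.48 ± 0.41 (SE, edgeR adjusted p = 0.769), so no difference in either direction was called. Without B3AR-Tg replicate 7 Postn was at −3.25. Fibroblast markers were lower too, 4 of 7 tested, and their part in these differences was not tested.

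Genes that the corticosteroid receptors are known to induce were also counted. Of 12 such targets, all tested, 0 were higher and 1 was lower (8.33% called, against 4.91% of all tested genes in either direction), with a median log2 fold change of −0.05. The one called was Sgk1, a kinase that aldosterone induces in kidney, which fell from 22.7 ± 3.71 to 15.2 ± 4.90 CPM (log2 difference −0.59 ± 0.16 SE, edgeR adjusted p = 0.0384). That call was lost in 11 of the 16 fits that left out 1 animal, where the adjusted p ran up to 0.0852. It was also lost with the replicate block (−0.62, adjusted p = 0.0618) and with the endothelial and other-cell scores in the model, where the log2 difference was −0.23 in both (adjusted p = 0.548 and 0.625), and with the load score (−0.79, adjusted p = 0.447). Fkbp5, a chaperone partner that glucocorticoids induce, had 11.2 ± 7.30 CPM in WT against 4.32 ± 4.26 CPM in B3AR-Tg (log2 difference −1.33, edgeR adjusted p = 0.0747), and Tsc22d3, a further target, had a log2 fold change of 0.15 (edgeR adjusted p = 0.527).

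Transcripts of steroid enzymes were scarce. Hsd11b2, which protects the mineralocorticoid receptor from glucocorticoids in kidney, held 1 count in all 16 libraries together, and the aldosterone and corticosterone synthases Cyp11b2 and Cyp11b1 held none. Hsd11b1, which regenerates active glucocorticoid, was at 2.38 ± 1.40 CPM in WT against 1.52 ± 0.367 CPM in B3AR-Tg (log2 difference −0.67, edgeR adjusted p = 0.270). Of 7 tested genes for steroid supply and receptor chaperones, 0 were called by edgeR, DESeq2 or voom, and 1 had an unadjusted p under 0.05, against 19.3% of all tested genes.

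**Figure D3:**
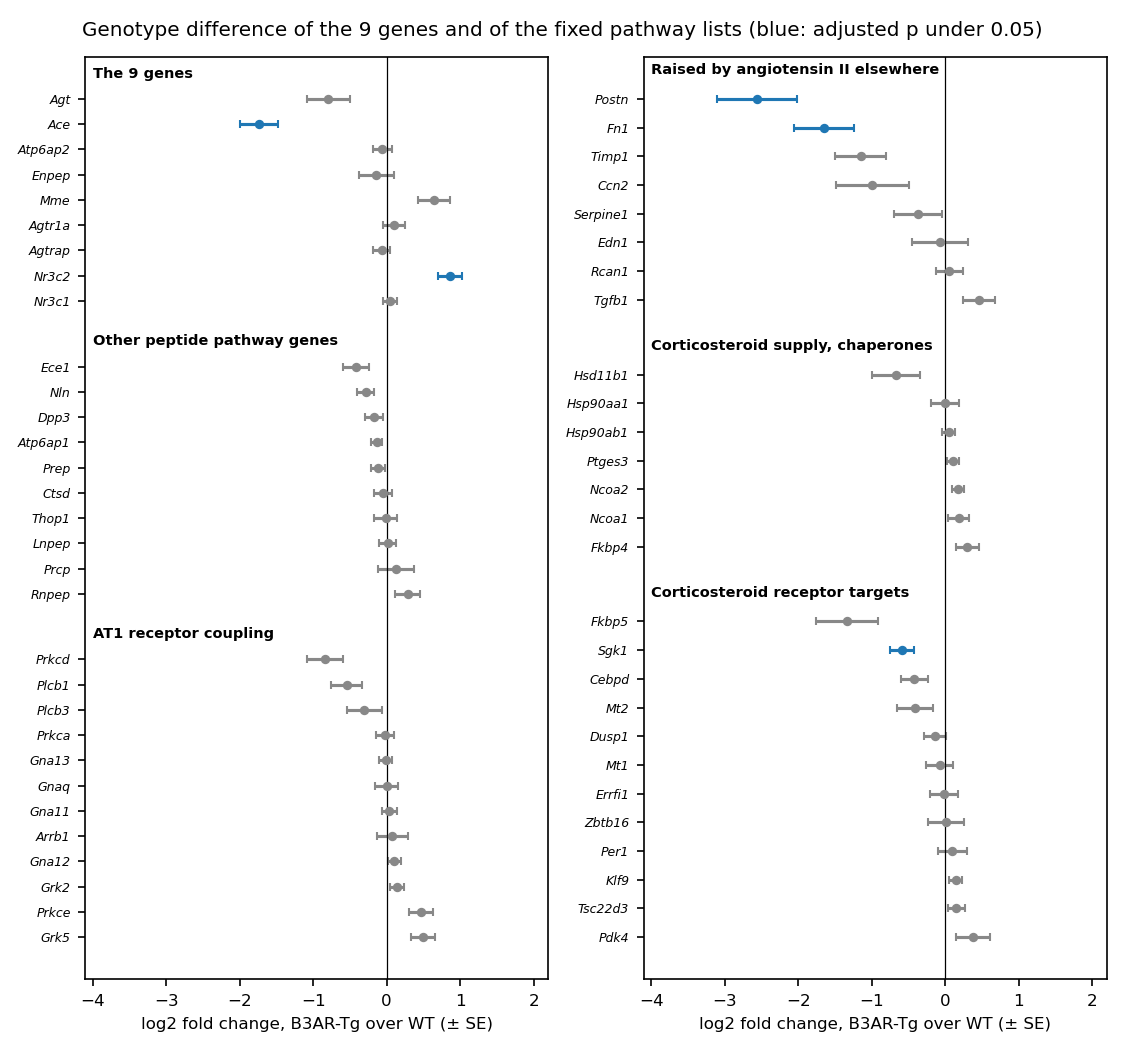
Fitted log2 fold change of B3AR-Tg over WT (horizontal axes, ± standard error) for the 9 genes and for the tested genes of the 5 pathway lists. Blue points have an edgeR adjusted p under 0.05, which holds for Ace, Nr3c2, Postn, Fn1 and Sgk1. Most peptide pathway and receptor coupling genes lie close to 0.

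Some endothelial and fibroblast markers were lower in B3AR-Tg, as Ace was, and their part in its difference was not tested. The 10 endothelial markers summed to 96.5 to 148 CPM in WT and 46.2 to 172 CPM in B3AR-Tg, with 3 of 10 lower and none higher. The 8 fibroblast markers summed to 39.9 to 123 CPM and 12.0 to 50.2 CPM, with 4 of the 7 tested lower, and the fibroblast factor Tcf21 held at most 3 counts in any library. The 8 mural markers summed to 90.3 to 165 CPM and 48.4 to 144 CPM, with none of the 7 tested called. The 10 leukocyte markers summed to 4.86 to 18.9 CPM and 0.795 to 8.56 CPM, with the T cell gene Cd3e at 0 throughout. Only 3 leukocyte markers were tested (Csf1r, Lyz2 and Mrc1), and the leukocyte score rests on them. None of the 3 was called, and all 3 had a negative log2 fold change. All 6 load markers (Nppa, Nppb, Myh7, Acta1, Ankrd1 and Xirp2, genes that pressure load raises) were lower in B3AR-Tg.

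Ace was then set against these lists. Per 1000 CPM of summed endothelial markers, Ace was at 32.4 to 88.2 CPM in WT with a median of 44.9, and at 11.3 to 44.3 CPM in B3AR-Tg with a median of 20.1. Per 1000 CPM of summed fibroblast markers, it was at 59.7 to 122 CPM in WT with a median of 73.3, and at 30.4 to 88.2 CPM in B3AR-Tg with a median of 74.5. So the medians differed relative to endothelial markers and were close relative to fibroblast markers, but the spread of the fibroblast ratio was unequal. In that ratio B3AR-Tg replicates 3, 4 and 8 (39.8, 45.3 and 30.4) lay below every WT animal. WT replicates 1 and 6 (107 and 122) lay above every B3AR-Tg animal. For summed load markers the WT median of this ratio was 0.440 (0.245 to 0.642). The B3AR-Tg median was 0.294 (0.158 to 0.507). Whether any of these lists accounts for the lower Ace was not tested. With the endothelial score in the model, the log2 fold change of Ace was −1.43 (standard error 0.35). With the mean score of all 4 other-cell lists it was −1.11 (standard error 0.30), and with the load score −0.84 (standard error 0.35).

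The log2 fold change of Nr3c2 was 0.94 with the endothelial score, 0.95 with the other-cell score and 0.62 with the load score (standard errors 0.21, 0.22 and 0.28). That of Mme was 0.61 and 0.69 with the cell scores but 0.01 with the load score (standard error 0.33). The scores differed with genotype themselves, so these fits cannot separate a score from genotype and test no cause. The load score was 0.907 ± 0.765 in WT and −0.907 ± 0.603 in B3AR-Tg, and B3AR-Tg replicate 7, at 0.281, was the one animal of its group within the WT range.

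Differences between animals of 1 genotype were not used to choose the genes, and Ace was compared with the scores within each. None of 10 relations passed after adjustment (exact permutation, 8 animals each, adjusted over the 10). Within WT, Ace and the load score had r = 0.73 (exact permutation p = 0.0523, adjusted p = 0.176) and rho = 0.71 (exact permutation p = 0.0576, adjusted p = 0.0960). Without the 2 animals farthest from the median load score r was 0.84 over 6. Ace and the fibroblast score had r = 0.69 in WT (exact permutation p = 0.0523, adjusted p = 0.176) and 0.70 in B3AR-Tg (exact permutation p = 0.0527, adjusted p = 0.176), with rho = 0.71 in both (exact permutation p = 0.0576, adjusted p = 0.0960). Without the 2 farthest animals these were 0.85 and 0.65.

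Ace and the endothelial score had r = 0.19 in WT (exact permutation p = 0.657, adjusted p = 0.821), with rho = 0.24 (exact permutation p = 0.582, adjusted p = 0.688). In B3AR-Tg the r was 0.44 (exact permutation p = 0.241, adjusted p = 0.344), with rho = 0.79 (exact permutation p = 0.0279, adjusted p = 0.0960). Without the 2 farthest animals r was 0.85 in WT and 0.77 in B3AR-Tg. In B3AR-Tg the relation with load was r = 0.54 (exact permutation p = 0.170, adjusted p = 0.284) with rho = 0.21 (exact permutation p = 0.619, adjusted p = 0.688), and without the 2 farthest animals it was −0.24, so it rested on those 2, of which replicate 7 has the highest Ace of the group. The mural score gave r = 0.67 in B3AR-Tg (exact permutation p = 0.0726, adjusted p = 0.181), with rho = 0.74 (exact permutation p = 0.0458, adjusted p = 0.0960), and r = 0.39 without the 2 farthest animals. In WT it gave r = 0.08 (exact permutation p = 0.884, adjusted p = 0.886), with rho = −0.45 (exact permutation p = 0.267, adjusted p = 0.382), and r = −0.79 without the 2. The leukocyte score gave r = 0.63 in B3AR-Tg (exact permutation p = 0.0968, adjusted p = 0.194), with rho = 0.74 (exact permutation p = 0.0458, adjusted p = 0.0960), and 0.55 without the 2 farthest animals. In WT it gave r = −0.06 (exact permutation p = 0.886, adjusted p = 0.886), with rho = 0.12 (exact permutation p = 0.793, adjusted p = 0.793), and −0.04 without the 2.

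For the other 8 genes, 0 of 80 such relations passed after adjustment over the 80 (smallest adjusted p = 0.439), and 6 had an unadjusted p under 0.05. Of these, 3 were with the load score: Agtrap in WT (r = 0.76) and B3AR-Tg (0.70), and Mme in B3AR-Tg (−0.76). The other 3 were of Enpep in B3AR-Tg, with the endothelial (0.75), mural (0.82) and leukocyte (0.74) scores. Without the 2 farthest animals these were, in the same order, 0.82, 0.96, −0.46, −0.04, 0.72 and 0.24.

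**Figure D4:**
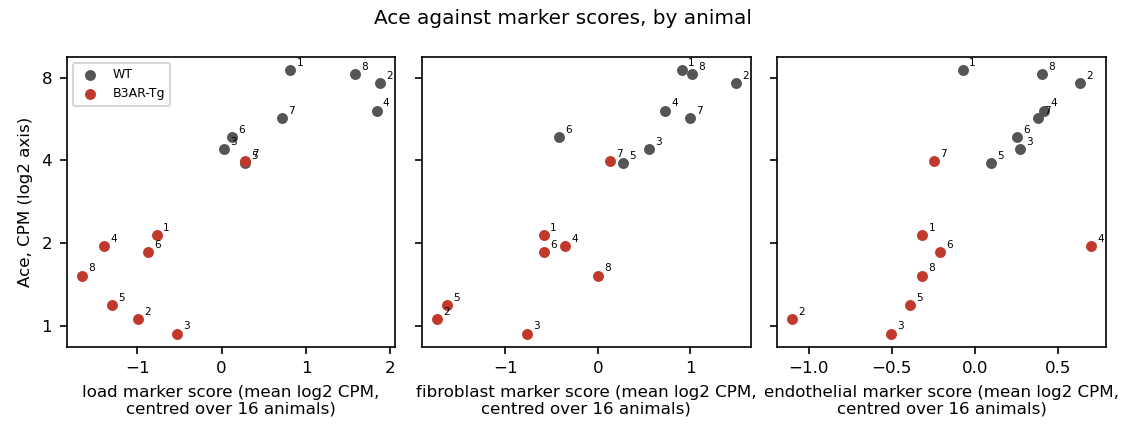
Ace in CPM (vertical axis, log2 scale) against the load, fibroblast and endothelial marker scores (horizontal axes, mean log2 CPM of each list centred over 16 animals) in WT (grey) and B3AR-Tg (red) animals, with replicate numbers. B3AR-Tg replicate 7, with the highest Ace of its group at 3.97 CPM, also has the highest load score of its group.

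Among the 9 genes themselves, Agt and Mme were set against each other within each genotype. In B3AR-Tg r was 0.19 (exact permutation p = 0.634, adjusted p = 0.904) with rho = −0.07 (exact permutation p = 0.882, adjusted p = 0.976). In WT, since Mme of WT replicates 4 and 8 lay far below the rest, no value over all 8 is given, and within the other 6 animals r was −0.93 (exact permutation p = 0.0125) with rho = −0.89 (exact permutation p = 0.0333). The WT relation was picked after its values were seen, from 72 (36 pairs in 2 genotypes), so its p-values are unadjusted and the relation is a description. Without the 2 animals farthest from the median Agt it was −0.74 over 4. Among the 6, Mme spanned only 7.67 to 9.35 CPM, on 60 to 110 counts. Replicate 1 had the lowest Mme and the highest Agt of the 6. Counts this low carry counting error, which was not separated from these small differences.

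The genes whose pattern was most like that of Ace, by Pearson correlation over the 16 animals after centring within genotype, among 10916 genes, were Synm (r = 0.86), Gprc5c (0.85), Mpp6 (0.84), Igf1r (0.83) and Bgn (0.82). Synm encodes synemin, an intermediate filament protein of muscle, Gprc5c an orphan receptor, Igf1r the receptor of insulin-like growth factor 1, and Bgn biglycan, a matrix proteoglycan. The list depended on the measure, as 4 of the 5 stayed with a prior count of 0.5 and 1 of the 5 with ranks. The points share libraries and depth. In the genotype comparison, Bgn fell from 7.74 to 2.64 CPM (log2 difference −1.57, edgeR adjusted p = 0.0223), while Synm (−0.59, edgeR adjusted p = 0.344) and Igf1r (−0.24, edgeR adjusted p = 0.564) did not pass.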

How the data were processed

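Per the labels' protocols, ventricular myocytes were isolated by Langendorff perfusion, kept on plates for 1 hour and lysed, and 500 ng of RNA was depleted of ribosomal RNA for stranded, paired-end libraries. The authors deposited whole-number counts per gene, not normalized, with 1 column per animal. The submitters' processing notes name Salmon and GRCm39. Salmon gives estimated counts that need not be whole, and whether these counts are rounded estimates of it, the annotation and the strand setting are not given in the sources used here, so counts of near-identical or overlapping genes (Agtr1a and Agtr1b, for example) are uncertain.

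Genotypes were compared gene by gene in edgeR 4.0.16 (R 4.3.3) by its quasi-likelihood test, after filterByExpr (minimum count 10, total 15) and TMM scaling, with genotype as the only term. P-values are two-sided and were adjusted by Benjamini-Hochberg over all 10945 tested genes (threshold 0.05). CPM are relative to the TMM-scaled library total. Scores are means over a marker list of log2 CPM (prior count 2) less each gene's mean over 16 animals. Correlations used exact permutation over the 40320 pairings of 8 animals. Lengths and positions are from GENCODE M21 (GRCm38), joined by gene ID. The count test and the permutation test were tested on simulated data. Labels gave 8 animals per genotype, and library totals ran from 5985335 to 14365864 counts. Comparison of libraries within a genotype (56 pairs) found none alike within sampling noise (chi-square per gene at least 6.21).

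The 9 genes and the gene lists were chosen with earlier results of these data known. Genes named are the 9 genes, up to 6 called genes per list (or the tested gene with the largest change where none was called), and the 5 genes most like Ace. A few others were named after their values were seen. Alternatives were other scalings (RLE, upper quartile, library size), filters, DESeq2 1.42.0, voom of limma 3.58.1, a replicate block, 3 marker scores as covariates, removal of mitochondrially encoded genes and Gm20594, other thresholds, and leaving out each of the 16 animals. Reads were not analysed here.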

Additional observations from a re-analysis of the deposited data

How the results depend on the processing

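The number of genes called, 537, became 230 with the replicate block, 28, 15 and 7 with the endothelial, other-cell and load scores as covariates, 908 at a threshold of 0.1 and 109 at 0.01, and ran from 272 to 675 when 1 animal was left out. Replicate numbers did not pair the animals: same-numbered animals had correlations of −0.22 to 0.09 and none correlated best with its own number, so the block (Nr3c2 0.82 and Ace −1.82 on the log2 scale) is a shared number only. The AT1 coupling list went from 0 called to 1 with library size scaling (higher in B3AR-Tg) and to 1 with DESeq2 and voom (lower). It went to 2 at a threshold of 0.1, and to between 0 and 2 without 1 animal. The list raised by angiotensin II went from 2 to 1 with the replicate block, to 0 with each of the 3 scores and at a threshold of 0.01, to 3 with DESeq2 and at a threshold of 0.1, and to between 1 and 3 without 1 animal. The corticosteroid target list went from 1 to 0 with library size scaling, each score and a threshold of 0.01, to 2 with voom and a threshold of 0.1, and to between 0 and 2 without 1 animal. Postn changed sign to 0.48 ± 0.41 (SE) with the load score and was not called there (edgeR adjusted p = 0.769). For these changes the cause was not tested. Without 1 animal, Ace ran from −2.02 to −1.65 and Nr3c2 from 0.79 to 0.95, as descriptions of genes chosen on this contrast. Mme, not called by edgeR or DESeq2, passed the threshold with voom at a log2 fold change of 0.70, likewise a description. Low counts limit Ace, with 9 to 90 counts per library, and Ren1 and Mas1, with at most 4 and 9 counts in any library.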

Other observations

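B3AR-Tg replicates 1 and 3 had Nr3c2 at the WT level while their Ace (2.14 and 0.94 CPM) was within the range of the other B3AR-Tg animals, so in these 2 animals Ace was low without a high Nr3c2. WT replicates 4 and 8, with high Agt and Agtrap and low Mme, had load scores of 1.84 and 1.58. WT replicate 2 had the highest load score, 1.88, with Agt at 5.52 CPM and Mme at 9.35 CPM. Over the 8 WT animals, the load score had r = 0.52 with Agt, 0.76 with Agtrap and −0.64 with Mme. None of these relations passed after adjustment, and a part of load in these levels was not tested. In a search of 18 groups of 8 values for a single highest or lowest animal far from the rest, 0 were found, where chance gives about 1 in 20.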
